A study of Mus musculus with 5 samples.

Results

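The DNA that a methyl-CpG binding domain (MBD) released at 600 mM NaCl was compared with unselected input DNA across the 19 autosomes of mouse embryonic stem cells. The libraries were chosen by their labels, as the MethylCap eluate at 600 mM NaCl and the input, and are 2 of the 5 libraries of the series, with 1 library per side. The eluate came from E14 embryonic stem cell clones of the SIGTR gene-trap library at passages 11 to 14, and the input was chromatin-derived DNA of TNG-A cells, an E14 stem cell line with an EGFP reporter at the Nanog locus. No antibody was used for the input. Cells were grown without feeders in serum with leukaemia inhibitory factor. For the capture, 1 µg of sonicated DNA was incubated with 2 µg of a His6-GST-MBD fusion, and bound DNA was washed off the beads with salt. Eluate and input thus differ in line, in clone and in DNA preparation as well as in the capture, and these differences cannot be told apart from the capture with 1 library each. The other 3 libraries, which came from clones of the same gene-trap library as the eluate, were an 800 mM eluate, a pulldown with an antibody to 5-methylcytosine (MeDIP) and one with an antibody to 5-hydroxymethylcytosine (hMeDIP). They serve here as readouts beside the 600 mM eluate and share the same input.

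An MBD binds DNA whose CpG sites carry 5-methylcytosine, and binds more firmly where methylated CpGs lie close together, so that salt releases loosely held fragments before tightly held ones. It needs double-stranded DNA, whereas the antibody of MeDIP binds methylated cytosine in denatured DNA. In mammalian cells most CpGs are methylated, but CpGs are scarce in most of the genome and dense in CpG islands, which are mostly free of methylation. Captured DNA therefore depends both on how many CpGs a stretch holds and on how many of these are methylated. No genome sequence of mm9, the build of the files, was used here, so CpG content was not counted and no bin was assigned to a gene.

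After filtering, 9523062 eluate reads and 16332177 input reads lay on chromosomes 1 to 19, which is 90.7% and 87.2% of the deposited reads. The other libraries held 6812759 reads (800 mM), 10260899 (MeDIP) and 18154810 (hMeDIP). Reads were counted per bin by their midpoint and scaled to RPM, the number of reads for every 1e6 reads of the library on these chromosomes. The ratio of a bin was (eluate RPM + 0.5)/(input RPM + 0.5). The fold of a set of bins was the quotient of summed read shares without the added constant. Intervals are exact 95% Clopper-Pearson intervals of the raw quotient. They cover counting error only, and that only as far as reads stand for separate molecules, which cannot be checked without molecular identifiers. Variation between libraries is not in them. There was no replicate of either side, so no test was made, and no difference below has a replicate check.

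The captured DNA was spread very unevenly over the autosomes, with a majority of the genome below the input level and a minority of bins carrying a large part of the reads. Among 100 kb windows with at least 100 input reads, the ratio ran from 0.165 at the 5th percentile to 2.75 at the 95th, a span of 16.7-fold, around a median of 0.741. Of these 23642 windows, 60.8% were below 1. In 15.997% the ratio was under 0.25, in 21.6% between 0.25 and 0.5, in 23.2% between 0.5 and 1, in 26.3% between 1 and 2, and in 12.8% at 2 or more. The windows were thus spread broadly over low, middle and high ratios rather than gathered near the median.

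**Figure D1:**
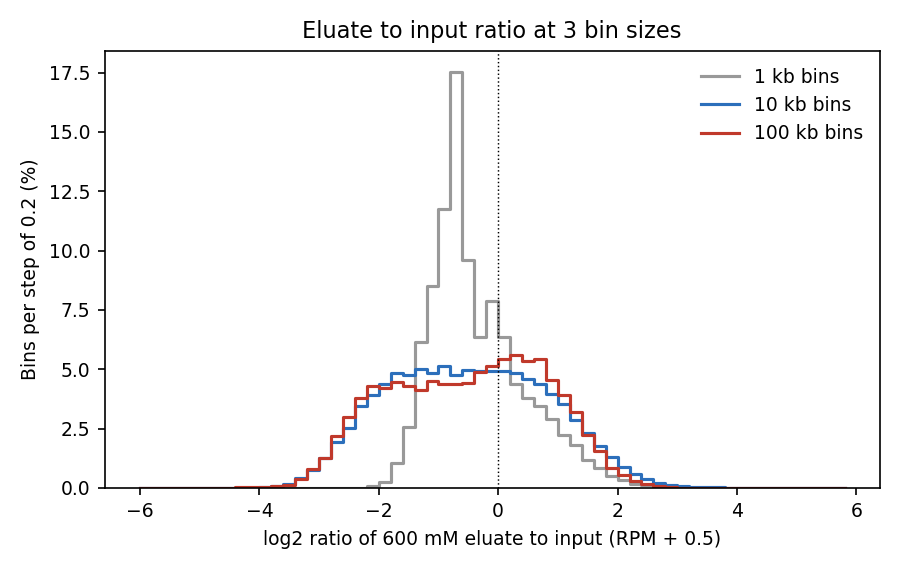
Distribution of the log2 ratio of the 600 mM eluate to input in bins of 1 kb (at least 5 input reads), 10 kb (at least 20) and 100 kb (at least 100); the y axis gives the percent of bins per step of 0.2, and the dotted line marks equal RPM. The 10 kb and 100 kb curves are broad (SD 1.32 and 1.30), whereas the 1 kb curve is drawn together by the added 0.5 RPM (SD 0.80).

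The spread of the landscape was nearly the same at 10 kb and at 100 kb. The SD of the log2 ratio was 1.32 across 231061 bins of 10 kb and 1.30 across the 100 kb windows. At 1 kb it was 0.80, since a median bin held 2 eluate and 7 input reads and the added 0.5 RPM draws such bins towards 1. Neighbouring windows resembled each other over long distances. The log2 ratios of 100 kb windows next to each other correlated with r = 0.852 (23533 pairs), of windows 1000 kb apart with r = 0.567 (23195 pairs), and of windows 5000 kb apart with r = 0.178 (22292 pairs). These pairs come from the same 2 libraries, and neighbours share fragments at their border.

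Bins called high or low were counted at all 3 sizes. At 1 kb, 80587 of 2272773 bins with a read (3.55%) were at a ratio of 3 or more, and 22839 (1.00%) were at 0.333 or less. The low count is limited by depth, since such a bin needs about 17 input reads even when the eluate has none. At 10 kb, 33625 of 237606 bins (14.2%) were at 2 or more and 89442 (37.6%) at 0.5 or less. At 100 kb, 3061 of 23923 windows (12.8%) were at 2 or more and 8974 (37.5%) at 0.5 or less. When the median ratio was set to 1, which raises all ratios by 1.44-fold at 10 kb and 1.35-fold at 100 kb, the split at 10 kb was 60343 high and 58840 low, and at 100 kb 5664 and 6719. Low windows thus still outnumbered high ones at 100 kb under this scaling, whereas at 10 kb the counts were close. At 1 kb the same scaling gave 203142 high bins. The 1 kb count also followed the added constant, with 233434 high bins at 0.1 RPM and 24901 at 1 RPM, and was 35847 when at least 5 input reads were required.

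The captured reads were concentrated in a small part of the genome. The 80587 enriched 1 kb bins, 80.6 Mb in all, held 23.3% of eluate reads (interval 23.31 to 23.36%) and 2.23% of input reads. The interval covers counting error only, and the choice of rule moved the share much further: it was 43.3% with 0.1 RPM added, 10.9% with 1 RPM, 42.4% with the median ratio set to 1 and 7.73% at a threshold of 5. The 10 kb bins at 2 or more held 40.9% of eluate reads against 12.1% of input reads, and those at 0.5 or less held 8.42% against 39.8%. Bins chosen by a ratio to the same input tend to be low in it: enriched 1 kb bins held a median of 4 input reads, against 7 over all bins with a read. The eluate fold over them was 10.5 (interval 10.4 to 10.5), and how much of it follows from that choice was not tested.

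Ordering 10 kb bins from the highest ratio down showed how far the other libraries followed the 600 mM eluate. The bins with the highest ratios that together held 10% of input reads held 36.2% of 600 mM reads, 36.1% of 800 mM reads, 27.4% of MeDIP reads and 22.9% of hMeDIP reads. At 50% of input reads the shares were 86.2%, 86.03%, 75.8% and 71.8%. The 800 mM eluate followed the order of the 600 mM eluate almost along the same curve, and both antibody libraries rose less steeply. The order was set by the 600 mM eluate and the shared input, so the steepness of its own curve is partly given by the ordering.

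**Figure D2:**
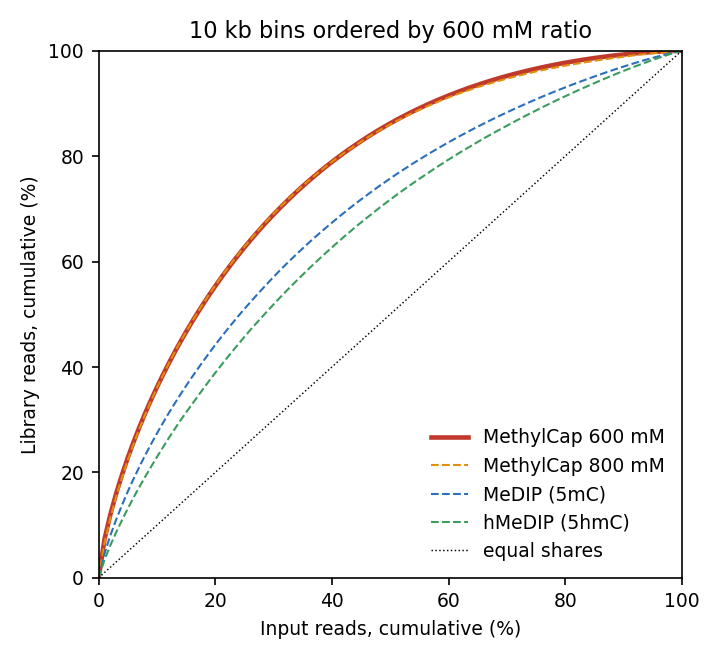
Cumulative share of reads of each library (y axis, percent) against the cumulative share of input reads (x axis, percent) over 10 kb bins ordered from the highest to the lowest ratio of the 600 mM eluate to input; the dotted line marks equal shares. At 10% of input reads the 600 mM curve stands at 36.2%, the MeDIP curve at 27.4% and the hMeDIP curve at 22.9%.

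Windows were also put in 20 equal classes of the 600 mM ratio, to see over which range the other libraries moved. In the lowest class of 1183 windows, with ratios of 0.0201 to 0.165, the eluate was at 0.1245-fold of input, the 800 mM eluate at 0.136-fold, MeDIP at 0.332-fold and hMeDIP at 0.403-fold. In the highest class of 1182 windows, with ratios of 2.75 to 8.46, the values were 3.56-fold, 3.61-fold, 2.75-fold and 2.43-fold. The rise of the 600 mM fold was given, since its ratio made the classes. The 800 mM, MeDIP and hMeDIP folds also rose over the 20 classes at every step. The antibody libraries covered a narrower range at both ends. Each of these values shares the input with the ratio that made the classes.

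At the scale of fragments, the mean profile over the enriched bins was a narrow peak. Reads on the plus and minus strand were offset by 265 bp in the 600 mM eluate, 250 bp in the 800 mM eluate, 185 bp in MeDIP, 188 bp in hMeDIP and 193 bp in input, as the distance between read starts with the highest count of pairs. The offset is a measure of fragment length. It was larger in both eluates than in input, whereas the curves of both antibody libraries were broad, so that their offsets are less certain. Fragment centres were placed by moving each read inward by 0.5 of the offset of its library, and were averaged around the highest point of the 30606 runs of enriched bins with at least 5 input and 20 eluate reads. The 600 mM eluate reached 8.65 RPM per kb at the centre against 1.04 at 4 to 5 kb to either side, and had fallen to 1.48 at 500 bp. Between the flank and the centre, the middle level was crossed over a width of 300 bp. The centres were placed on the maxima of this same library, so its height and width there are partly given by that choice.

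The libraries that did not place the centres peaked at the same point. The 800 mM eluate stood at 6.24 RPM per kb there and 1.08 in the flank, MeDIP at 4.21 and 0.836, and hMeDIP at 2.49 and 0.779. Their width at the middle level was also 300 bp in steps of 100 bp. Input was at 0.383 in the centre and 0.437 in the flank, but the bins were chosen by a ratio to this input, which favours low input at the centre. The flanks themselves lay above input in all 4 libraries, with a fold of 2.39 at 600 mM, 2.48 at 800 mM, 1.91 for MeDIP and 1.78 for hMeDIP. Peaks thus lay in surroundings that were enriched as well.

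**Figure D3:**
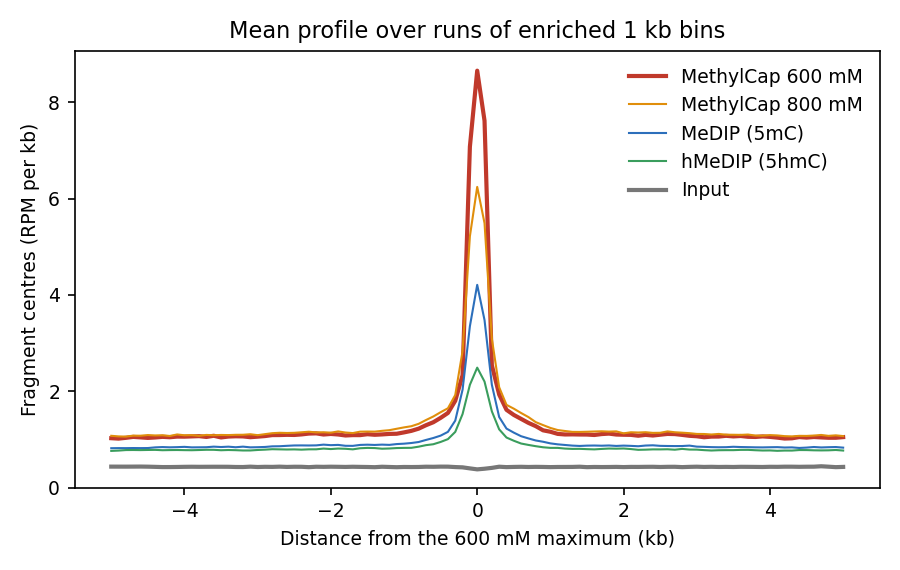
Mean density of fragment centres (RPM per kb, y axis) against the distance from the highest point of the 600 mM eluate (kb, x axis) over 30606 runs of enriched 1 kb bins. The 600 mM curve, whose maxima define the centres, reaches 8.65; the 800 mM, MeDIP and hMeDIP curves reach 6.24, 4.21 and 2.49 at the same point, and input stays near 0.4.

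The broad landscape did not consist of the enriched 1 kb bins alone. Weaker peaks under the threshold of 3 stayed in the windows, and no other threshold was run here, so a background apart from all peaks was not tested. When the enriched 1 kb bins were taken out of every 100 kb window, the SD of the log2 ratio across windows was 1.16, against 1.30 with them, and the ratios with and without these bins correlated with r = 0.985 over the same 23642 windows and libraries. The number of windows at 2 or more fell from 3036 to 951. In windows at 2 to 4, the eluate was at 2.61-fold with the enriched bins and 1.81-fold without them. In windows under 0.25, the values were 0.175-fold and 0.172-fold. Summed over windows, low windows thus stayed low and high windows stayed above input without the enriched bins, although single bins went the other way in both.

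Enriched 1 kb bins were most frequent in high windows. They made up 0.0752% of the covered 1 kb bins in windows under 0.25, 0.438% at 0.25 to 0.5, 1.30% at 0.5 to 1, 4.60% at 1 to 2, 13.1% at 2 to 4 and 29.5% at 4 or more. A typical window held 1 enriched bin, 37.2% of windows held none, and the fullest held 60. In windows at 4 or more, 60.4% of the eluate reads fell in enriched bins, against 1.87% in windows under 0.25. The enriched bins are themselves part of the window ratio, so this gradient is a description of how the reads are packed and not of an independent relation.

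The 10 highest 1 kb bins had ratios of 42.8 to 81.0 and held 328 to 664 eluate reads against 5 to 12 input reads. The first, 12810001–12811000 of chromosome 10, counted 664 reads in the 600 mM library, 170 at 800 mM, 64 in MeDIP, 5 in hMeDIP and 6 in input (ratio 81.0, interval of the raw quotient 86.7 to 519.0). The second, on chromosome 14 at 75723001–75724000, held 458, 303, 46, 12 and 5 reads in the same order (ratio 60.3, interval 66.8 to 486.1). The added constant places these ratios below the raw quotients. The reads of the first bin used 33.2% of the 2000 start positions that 1 kb offers on both strands. Each position and strand counts once, so counts in bins of this height are capped.

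Other bins of this group differed in the antibody readouts. On chromosome 17, the bin 23956001–23957000 counted 499 reads in the 600 mM library, 113 at 800 mM, 102 with MeDIP and 142 with hMeDIP against 12 in input, and was high in all 4 libraries. On chromosome 10, the bin 13140001–13141000 counted 340 reads in the 600 mM library and 165 in the 800 mM library, but 6 in MeDIP and 16 in hMeDIP against 5 in input. On chromosome 6, the bin 4697001–4698000 counted 415, 69, 29, 6 and 6 reads. Among the 10 bins, the 800 mM eluate was at 3 or more in 10 (12.2 to 55.8), MeDIP in 9 (1.35 to 10.5) and hMeDIP in 5 (0.776 to 6.74), where 4.53%, 2.72% and 2.13% of all bins passed that ratio. In 3 of the 10 bins, hMeDIP was below input, but on 5, 4 and 6 reads against 6, 7 and 6 in input. Counts this low do not tell these bins from an equal share. All 10 lay in 100 kb windows with ratios of 2.02 to 4.72, which include the bins themselves.

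The 10 highest bins of 10 kb had ratios of 19.98 to 49.1. The first, 76000001–76010000 of chromosome 15, counted 1345 reads in the 600 mM library, 539 at 800 mM, 376 in MeDIP, 535 in hMeDIP and 39 in input (ratio 49.1, interval 43.04 to 83.6). The bin 174120001–174130000 of chromosome 2 held the most eluate reads of the group, 1372, with 294 at 800 mM, 205 in MeDIP, 115 in hMeDIP and 67 in input, and its hMeDIP ratio of 1.48 was the lowest of the 10. A bin on chromosome 12 at 114150001–114160000 differed from the other 9 in MeDIP, whose ratio was the highest of the 10, with 395 reads at 600 mM (ratio 23.5), 269 at 800 mM (22.4), 362 in MeDIP (20.04), 318 in hMeDIP (10.1) and 21 in input. MeDIP was at 2 or more in 9 of the 10 bins and hMeDIP in 9, where 11.2% and 9.16% of all bins passed that ratio. The exception for MeDIP was a bin on chromosome 2 at 25430001–25440000, with 708 eluate and 53 input reads but 41 MeDIP reads (ratio 1.20).

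At 100 kb, 13.2% of windows were at 2 or more in the 800 mM eluate, 8.42% in MeDIP and 6.88% in hMeDIP. In the highest windows the 2 salt steps stood closer together than in the highest small bins. Windows and small bins were both picked as the highest by the ratio of the lower salt step itself, which favours that step over the 800 mM eluate. The part of this choice in the contrast between bin sizes was not tested. The highest window, on chromosome 5 at 125500001–125600000, held 2227 eluate and 444 input reads (ratio 8.46, interval 7.77 to 9.55), and the 800 mM ratio was 7.67, that of MeDIP 5.38 and that of hMeDIP 4.25. The window on chromosome 5 at 114800001–114900000 followed with 2522 and 520 reads (8.20, interval 7.57 to 9.16), and its 800 mM ratio was 8.23. Windows on chromosome 12 at 112500001–112600000, chromosome 17 at 6400001–6500000 and chromosome 11 at 117900001–118000000 had ratios of 7.66, 7.65 and 7.61. The chromosome 17 window held 1040 eluate and only 226 input reads, against a median of 669 input reads over all windows. It was among those dropped when windows of unusual input density were left out. The intervals of these 5 windows overlap, so their order is not fixed by the counts.

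High signal formed shorter stretches than low signal. Consecutive 10 kb bins at 2 or more formed 16059 runs with a median of 10 kb, of which 297 were 100 kb or longer. Bins at 0.5 or less with at least 20 input reads formed 26595 runs with a median of 20 kb, of which 1849 were 100 kb or longer and 124 were 300 kb or longer, against 13 high runs of that length. Runs of 100 kb or longer held 13.4% of the high bins and 33.9% of the low bins. The low runs were made of 88566 bins and the high runs of 33625, and the part of this difference in number in the run lengths was not tested.

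The longest high run lay on chromosome 12 at 113230001–113790000, over 560 kb. It held 8246 eluate and 2835 input reads (4.99-fold, interval 4.78 to 5.21), and every 10 kb bin in it was between 2.02 and 35.4. Over this run, the fold of the 800 mM eluate was 4.88, that of MeDIP 3.60 and that of hMeDIP 2.76. The next runs were 480 kb long, on chromosome 2 at 168110001–168590000 (4.61-fold) and chromosome 4 at 150490001–150970000 (4.87-fold). In each of the 5 longest high runs the order was the same for the antibodies, with MeDIP at 3.05-fold to 3.94-fold and hMeDIP at 2.64-fold to 3.31-fold.

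The longest low run covered 1130 kb on chromosome 7 at 59800001–60930000. It held 404 reads of the 600 mM eluate, 298 of the 800 mM eluate, 1358 of MeDIP, 2898 of hMeDIP and 6188 of input, so that the 600 mM eluate was at 0.112-fold (interval 0.101 to 0.124). MeDIP was at 0.349-fold and hMeDIP at 0.421-fold over the same run. Runs on chromosome 1 at 68240001–69090000 (850 kb, 0.129-fold) and chromosome 14 at 111270001–112070000 (800 kb, 0.108-fold) came next. Over the 5 longest low runs the eluate was at 0.108-fold to 0.133-fold, MeDIP at 0.296-fold to 0.349-fold and hMeDIP at 0.315-fold to 0.421-fold. With reads marked 1 in the deposited column 4, the run on chromosome 7 was at 0.141-fold.

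The 5 lowest 100 kb windows all lay on chromosome 4 between 111800001 and 113500000. The window at 111900001–112000000 held 398 input reads but no read of either eluate, 2 of MeDIP and 4 of hMeDIP. With the absent reads of the 600 mM library set to a floor of 3, this eluate was 77.4-fold lower. The upper bound of its interval was 0.0160-fold of input. Over the whole stretch of 24 windows at 111600001–114000000, the 600 mM eluate was at 0.0623-fold of input (294 against 8097 reads, interval 0.0552 to 0.06996), the 800 mM eluate at 0.0693-fold, and the antibody libraries at 0.191-fold (MeDIP) and 0.217-fold (hMeDIP). In the 8 windows that follow, 114000001–114800000 the values were 1.249-fold, 1.04-fold, 1.27-fold and 1.23-fold. The stretch is the unbroken run of windows at 0.25 or less around the lowest window, a rule chosen after the values were seen.

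This stretch differs from other low windows in that all 4 libraries of the E14 clones were nearly empty in parts of it. The 1st percentile of all windows was 0.115 in the 600 mM eluate, 0.280 in MeDIP and 0.327 in hMeDIP. A ratio of 0.1 or less in all 4 libraries, a rule added after the values were seen, was met by 13 windows, 8 of them in this stretch. The others were 7:26800001–26900000, 11:71000001–71100000, 13:61900001–62000000, and 17:40100001–40200000 with its neighbour 17:40200001–40300000. Input was itself sparse over the stretch, with a median of 318 reads per window against 669 over all windows. A difference in copy number between the E14 clones and the TNG-A line of the input cannot be told apart here from a lack of captured DNA.

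Sharp contrasts within windows were looked for in both directions. In windows at 0.5 or less, 2370 enriched 1 kb bins were found, and 483 of them had at least 5 input and 20 eluate reads. The highest of these, 140874001–140875000 of chromosome 3, counted 110 reads in the 600 mM library, 42 at 800 mM, 42 in MeDIP, 58 in hMeDIP and 6 in input (ratio 13.9), in a window at 0.477. The next, on chromosome 15 at 16111001–16112000, held 85, 26, 8, 2 and 5 reads in a window at 0.335. Of the 2370 bins, 51.7% were also at 3 or more in the 800 mM eluate, 21.2% in MeDIP and 7.68% in hMeDIP. Over all 1 kb bins with a read, 4.53%, 2.72% and 2.13% passed that ratio. The bins were chosen by a ratio to the input that these libraries share, which favours low input in all of them. Of the 43383 enriched bins in windows at 2 or more, the shares were 74.4%, 41.02% and 22.9%. Bins in low windows were shallower, with a median of 19 eluate and 2 input reads against 24 and 4, and the part of depth in these shares was not tested.

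In the other direction, 418 bins of 1 kb were at 0.333 or less inside windows at 2 or more. They had to hold at least 17 input reads, and 355 of them held no eluate read. The lowest, on chromosome 2 at 165982001–165983000, held 38 input reads, no read at 600 mM, 1 at 800 mM, 1 in MeDIP and 5 in hMeDIP, in a window at 3.20. Summed over the 418 bins, which were chosen to be low at 600 mM, the 800 mM eluate was at 0.151-fold (interval 0.138 to 0.165), MeDIP at 0.171-fold (0.160 to 0.183) and hMeDIP at 0.323-fold (0.309 to 0.336). The rule picks bins of dense input. In all 5813 bins with at least 16 input reads in such windows, the 600 mM eluate was at 0.805-fold and the 800 mM eluate at 0.816-fold. MeDIP was at 0.611-fold and hMeDIP at 0.846-fold there, so the other 3 libraries were lower in the gaps than in this set. The set includes the gaps, and its median was 17 input reads against 19 in the gaps, so input density was not matched.

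The fold of summed reads was highest in bins of somewhat low input and fell over the classes above them, but not at either end. Among 10 kb bins, whose median was 67 input reads, the eluate was at 1.299-fold in 16604 bins under 0.5 times the median input, 1.50-fold in bins with 0.5 to 0.8 times the median input, 1.05-fold at 0.8 to 1.25 times, 0.769-fold at 1.25 to 2 times and 0.426-fold at 2 to 3 times. In the 55 bins above 3 times the median it was at 1.05-fold by summed reads, with 7 bins at a ratio of 2 or more. The median ratio of these 55 bins was 0.368, near the 0.363 of the class below, so the typical bin stayed low. MeDIP took the values 1.301-fold, 1.51-fold, 1.07-fold, 0.738-fold, 0.410-fold and 1.11-fold in the same classes, and hMeDIP 1.05-fold, 1.32-fold, 1.03-fold, 0.868-fold, 0.655-fold and 0.839-fold. The classes are made by the denominator of the quotient, and the part of counting error in this order was not tested.

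Whole autosomes differed by less than windows within them. The eluate was highest on chromosome 5 (1.24-fold of its input share, 713883 against 985355 reads), followed by chromosome 11 (1.22-fold) and chromosome 17 (1.19-fold). It was lowest on chromosome 14 (0.744-fold, 362877 against 836926 reads), chromosome 3 (0.764-fold) and chromosome 1 (0.821-fold). The widest interval of the 19 was 0.0113 across. Chromosomes 5, 11 and 17 were apart from each other in these libraries beyond counting error, but no replicate shows how such shares vary. The interval of chromosome 17 (1.189 to 1.199) overlapped that of chromosome 8 (1.19-fold, 1.185 to 1.193), so the counts do not fix their order. Of the 19 autosomes, 11 were above 1. Relative to the median 100 kb window, chromosomes 14, 3 and 1 were at 1.00, 1.03 and 1.11.

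**Figure D4:**
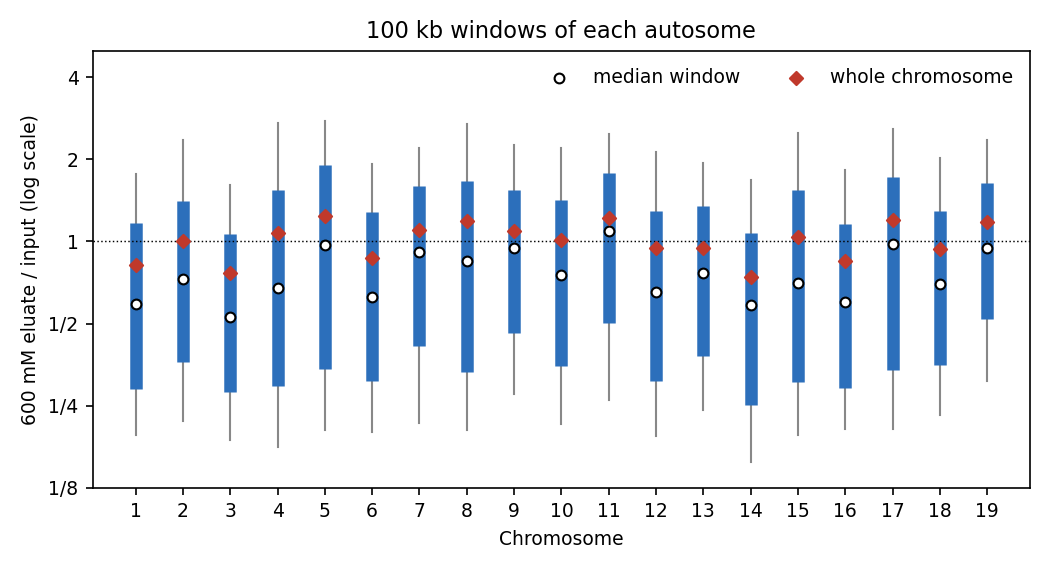
Ratio of the 600 mM eluate to input on a log scale in 100 kb windows of each autosome: thin lines span the 10th to 90th percentile of windows, thick bars the 25th to 75th, circles mark the median and diamonds the fold of the whole chromosome. Medians run from 0.528 to 1.10, whereas the lines within each chromosome span a much wider range.

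The chromosomes differed in both their high and their low windows. The 90th percentile of windows ran from 1.61 on chromosome 3 to 2.76 on chromosome 5, and the 10th percentile from 0.155 on chromosome 14 to 0.308 on chromosome 19. On chromosome 5, 22.7% of windows were at 2 or more and 5.35% of covered 1 kb bins were enriched. On chromosome 3 the values were 4.35% and 2.17%, and on chromosome 14 they were 5.85% and 1.97%. Chromosome 4 had 17.5% of windows at 2 or more and 39.3% at 0.5 or less. Chromosome 14 was the lowest and chromosome 3 the second lowest in all 4 libraries, and chromosome 5 was the highest in all but hMeDIP, where chromosome 11 stood above it. MeDIP was at 1.16-fold on chromosome 5 and 0.819-fold on chromosome 14, and hMeDIP at 1.15-fold and 0.808-fold on the same pair.

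High windows lay towards the distal ends of the chromosomes. Of all 100 kb windows, 15.99% were in the last 20 Mb of an autosome, but 39.6% of windows at 2 or more and 59.4% of the 261 windows at 4 or more were. Of the windows at 0.5 or less, 9.26% lay there. Over the last 5 Mb the eluate was at 1.40-fold (interval 1.39 to 1.40) and over the rest of the chromosomes at 0.988-fold, with the distal end above the rest on 14 of 19 autosomes. The exceptions were chromosomes 3, 12, 13, 17 and 18, where the last 5 Mb were at 0.229-fold to 0.601-fold. On chromosome 4 the last 5 Mb reached 3.49-fold, the highest of the 19.

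The very tips were low. In the last 1 Mb the summed reads were at 0.686-fold and the median autosome at 0.432-fold, and the eluate rose to 1.69-fold between 2 and 3 Mb from the end and 2.04-fold between 7 and 8 Mb. With a window of 2 Mb in place of 5 Mb, the distal end was therefore at 0.901-fold and below the rest, and above it on 8 of 19 autosomes. With 10 Mb it was at 1.61-fold and above the rest on 16. At the centromeric end, the first 5 Mb of sequence from 3 Mb on were at 0.870-fold, above the rest on 6 of 19 autosomes. A minimum lay further in, at 0.482-fold in the 1 Mb that starts 13 Mb from there, where the median autosome was at 0.340-fold.

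**Figure D5:**
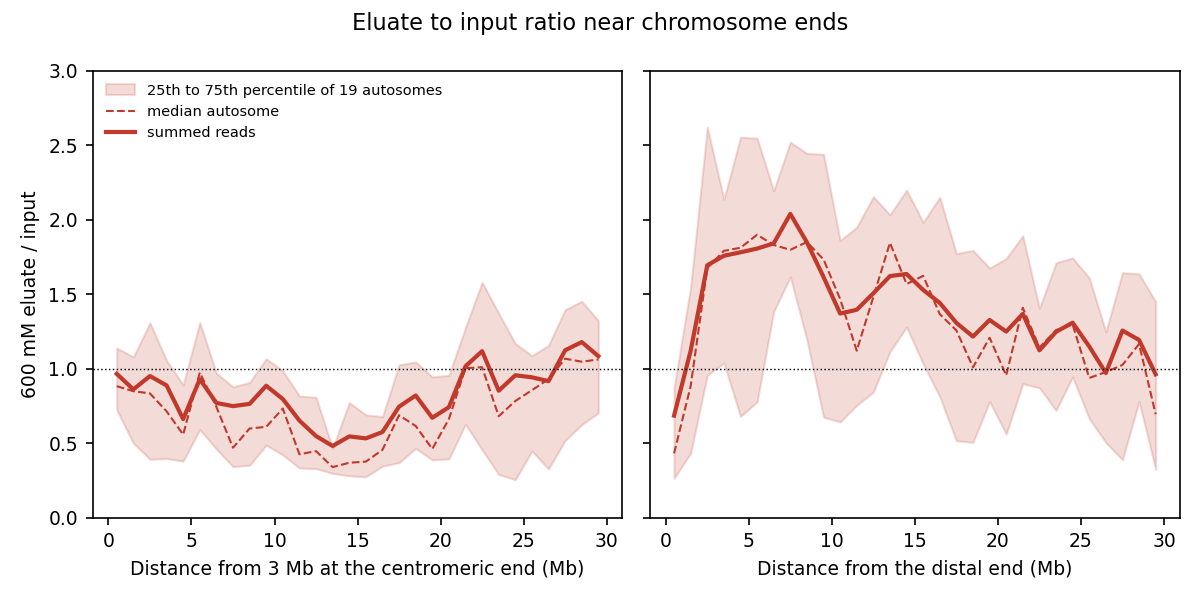
Ratio of read shares of the 600 mM eluate and input in steps of 1 Mb from the centromeric end (left) and the distal end (right) of the 19 autosomes: the thick line gives summed reads, the dashed line the median autosome and the band the 25th to 75th percentile of autosomes. The distal curve starts at 0.686, climbs to 2.04 at 7 to 8 Mb, then falls unevenly and stands at 0.963 at 29 to 30 Mb.

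The other libraries took the same course along the ends. In the last 1 Mb the 800 mM eluate was at 0.672-fold, MeDIP at 0.738-fold and hMeDIP at 0.806-fold, and at 7 to 8 Mb from the end they were at 2.06-fold, 1.74-fold and 1.58-fold. At the centromeric minimum they were at 0.459-fold, 0.650-fold and 0.676-fold. Both antibody libraries again lay nearer to 1 than the eluates at these places. All 4 share the input of the TNG-A line, and what such sharing contributes was not tested.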

How the data were processed

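The deposited files list aligned reads of 35 bp, 1 per line, with position and strand in mm9. Reads were aligned with BWA 0.5.8, per the submitters' processing notes. In the deposited files the count of column 5 equals 1 throughout, so counts per bin are numbers of lines. No source used here gives the meaning of column 4 (0 or 1). Lines with a 1 (7.88% of eluate and 8.38% of input reads) were left out. The 800 mM eluate had 8.22% of such lines and both antibody libraries 0%, so the filter acted on the eluates and the input only. It also left 1 read per position and strand. Duplicate removal caps dense bins at 2000 reads per 1 kb.

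Midpoints were counted in bins of 1, 10 and 100 kb of chromosomes 1 to 19 with Python 3.11.15, numpy 2.4.6, pandas 2.3.3 and scipy 1.17.1, and scaled to reads on these chromosomes. The pseudocount was 0.5 RPM. High bins had a ratio of 3 (1 kb) or 2 (10 and 100 kb), and distributions used bins with at least 5, 20 and 100 input reads. Named were the 10 highest bins of 1 kb (at least 5 input and 20 eluate reads) and of 10 kb, the 5 highest and lowest 100 kb windows, the 5 longest runs in each direction and the 3 highest and lowest chromosomes. Isolated bins, gaps, nearly empty windows, window classes and the distal 20 Mb were added after the values were seen. All members, rules and thresholds were chosen with earlier results of these data known. The ratio rule was tested on simulated data. Alternatives changed the filters, read position, scaling, input depth, pseudocount, grid, thresholds and end windows.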

Additional observations from a re-analysis of the deposited data

Results flagged for a closer look

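Sequence outside chromosomes 1 to 19, which no comparison above uses, was in part above and in part below input in the 600 mM eluate, with the same filters and scaling. Chromosome Y was at 130.3-fold (1672 reads against 22, interval 85.8 to 208.6) and its unplaced sequence at 175.3-fold (4702 against 46, interval 131.2 to 239.8). The input of the TNG-A line held almost no Y reads, against 783695 reads on chromosome X. Both folds thus rest on a nearly empty denominator and do not measure capture of Y sequence. What capture adds to them cannot be told apart from the difference between the lines. Unplaced sequence of chromosome 1 was at 2.72-fold (4168 against 2631 reads), that of chromosome 4 at 1.80-fold (949 against 902) and that of unknown chromosome at 1.52-fold (8717 against 9847). Unplaced sequence of chromosomes 13 (0.733-fold), 8 (0.793-fold), 9 (0.556-fold) and X (0.213-fold) was below input, as were chromosome X (0.268-fold) and mitochondrial DNA (0.0513-fold). For these values, too, line and DNA preparation cannot be told apart from capture. Unplaced sequence of chromosomes 5, 7 and 17 held at most 4 reads per library.

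Reads with a 1 in column 4, which were left out, also gathered in the enriched 1 kb bins. Of these reads on chromosomes 1 to 19, 18.4% of 810813 in the eluate and 2.87% of 1508121 in the input lay there, a quotient of 6.42. For the reads that were kept, the shares were 23.3% and 2.23%. The bins were called on the kept reads, so the marked reads were not part of the choice, although they come from the same libraries. The deposited eluate had 117933 positions with 2 lines and the input 0. No position was doubled among kept reads, so marked eluate reads may share position and strand with kept reads. How many of these lay in the enriched bins was not counted.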

How the results depend on the processing

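Setting the median ratio to 1 gave 203142 enriched 1 kb bins (42.4% of eluate reads), 60343 high and 58840 low 10 kb bins, 5664 high 100 kb windows, and all 19 autosomes above 1, with chromosomes 14, 3 and 1 at 1.00, 1.03 and 1.11. At 1 kb the count followed the pseudocount, with 233434 bins (43.3% of reads) at 0.1 RPM and 24901 (10.9%) at 1 RPM, the SD at 100 kb being 1.33 and 1.26. A 5-fold threshold left 15425 bins (7.73% of reads) and a minimum of 5 input reads 35847. A 3-fold threshold gave 13378 high and 55606 low bins at 10 kb, and 879 and 5951 at 100 kb. With reads marked 1 in column 4 the share in enriched bins was 22.8%, the SD 1.28 and the last 5 Mb 1.41-fold of the rest. That share was 24.4% with positions moved 100 bp, 24.6% with the input thinned to the eluate, 23.2% on a grid moved by 0.5 bins and 23.1% without windows of unusual input density, where the SD was 1.29. The distal end was at 0.898-fold of the rest with 2 Mb and 1.69-fold with 10 Mb, against 1.42-fold with 5 Mb. Keeping all lines changed no value, since no position was doubled among reads with a 0. Ratios of the 10 named 1 kb bins moved with the pseudocount (27.1 to 149.4 over the alternatives). Named bins were not recomputed on the moved grid. No paired analysis was possible because there is 1 library per side, and no replicate could be left out. At 1 kb, 7 input reads in the median bin limit what can be called low.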
